A study of Mus musculus with 11 samples.

Results

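Keratins of the interfollicular epidermis (IFE) were measured as RNA in sorted cells of the mouse back skin. The genes chosen by name were the basal keratins Krt5 and Krt14 and the suprabasal keratins Krt1, Krt10, Krt2, Krt77, Krt78 and Krt80, which are 8 of the 55536 Ensembl genes counted and 8 of the 54 keratin genes found by symbol. The 11 libraries came from male CD4Cre R26-tdT mice on a C57Bl6/N background, 29 weeks old for replicate 1 and 32 weeks old for replicates 2 and 3, with epidermal cells of 2 mice pooled for each library. Cells were released from dorsal skin with thermolysin and sorted for CD49f, CD34, SCA-1 and tdT into 4 groups. These were tdT+CD49f+CD34+ (n = 3), tdTnegCD49f+CD34+ (n = 3), tdT+CD49f+CD34+SCA-1+ (n = 3) and tdTnegCD49f+CD34+SCA-1+ cells (n = 2). The CD49f+CD34+ cells were gated as SCA-1 negative and are called bulge cells by the study, after the stem cell region of the hair follicle. All groups carried both alleles, a Cre recombinase driven by Cd4 and a tdTomato reporter that stays on in every descendant of a cell in which Cre was active, so that tdT marks descent from a Cd4 expressing cell and not present CD4.

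Keratins form the intermediate filaments of epithelial cells, and each filament is built from pairs of 1 type I and 1 type II chain. Basal keratinocytes make K5 (type II) with K14 (type I). On leaving the basal layer they switch on K1 (type II) and K10 (type I), which mark the spinous layers, while K2 is a type II keratin of the upper spinous and granular layers. K77 and K78 are further type II keratins of the suprabasal epidermis, and K80 is a type II keratin of many stratified epithelia. Of the 8 genes, Krt14 and Krt10 encode type I chains and lie on chromosome 11, and the other 6 encode type II chains and lie on chromosome 15, all on the minus strand of GRCm38.

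The basal genes lie at chr11:100203162-100207548 (Krt14) and chr15:101707070-101712898 (Krt5). Krt10 lies at chr11:99385254-99389364. The other suprabasal genes lie at chr15:101845426-101850794 (Krt1), chr15:101810689-101818169 (Krt2), chr15:101858731-101869705 (Krt77), chr15:101946001-101954287 (Krt78) and chr15:101347444-101370162 (Krt80). Krt2, Krt1 and Krt77 are thus close neighbours within the type II cluster. RefSeq promoter windows, 250 bases before to 50 bases after a gene's start on GRCm38.p6, were found for 6 of the 8 genes. Krt1 and Krt80 had no entry, and the Krt14 window lay 1518 bases inside the gene model used here. The windows of Krt5, a basal gene with a high level in all groups, and of the 3 suprabasal genes with a window whose levels spread most between libraries, Krt10, Krt77 and Krt78, are shown 5' to 3' on the minus strand, with the bases of a TATA-like element just before the start in capitals. They lie at chr15:101712856-101713155 (Krt5), chr11:99389315-99389614 (Krt10), chr15:101869656-101869955 (Krt77) and chr15:101954238-101954537 (Krt78).
Krt5: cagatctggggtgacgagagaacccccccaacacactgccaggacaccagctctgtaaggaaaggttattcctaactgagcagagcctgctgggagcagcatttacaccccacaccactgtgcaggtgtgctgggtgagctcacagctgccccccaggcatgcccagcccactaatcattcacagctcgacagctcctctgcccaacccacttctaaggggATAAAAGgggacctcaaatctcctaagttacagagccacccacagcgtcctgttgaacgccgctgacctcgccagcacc
Krt10: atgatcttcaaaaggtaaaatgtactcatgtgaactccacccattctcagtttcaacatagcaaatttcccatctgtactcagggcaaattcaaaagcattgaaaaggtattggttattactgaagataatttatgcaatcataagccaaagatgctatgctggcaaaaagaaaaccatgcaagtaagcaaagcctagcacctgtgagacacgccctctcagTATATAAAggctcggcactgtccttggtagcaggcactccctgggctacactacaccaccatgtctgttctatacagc
Krt77: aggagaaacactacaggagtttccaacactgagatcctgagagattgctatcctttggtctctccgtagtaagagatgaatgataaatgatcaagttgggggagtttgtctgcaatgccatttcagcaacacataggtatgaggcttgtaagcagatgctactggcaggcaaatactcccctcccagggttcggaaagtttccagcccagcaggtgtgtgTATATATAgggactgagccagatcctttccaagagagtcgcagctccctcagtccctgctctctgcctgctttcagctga
Krt78: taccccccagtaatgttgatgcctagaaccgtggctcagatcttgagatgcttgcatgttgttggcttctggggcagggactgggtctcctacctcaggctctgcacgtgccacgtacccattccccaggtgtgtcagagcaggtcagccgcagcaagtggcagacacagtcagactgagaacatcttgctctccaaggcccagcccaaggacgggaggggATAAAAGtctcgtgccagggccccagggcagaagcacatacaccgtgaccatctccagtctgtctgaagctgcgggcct

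The same element, ATAAAAG, stood 29 bases before the start of both Krt5 and Krt78. Krt10 had TATAAA 26 bases before its start, overlapping a TATATA that began 2 bases earlier, and Krt77 had 2 overlapping copies of TATATA, the first 30 bases before its start. Krt2 also held TATATA, 29 bases before its start, while the Krt14 window held none of the 3. Searched on both strands anywhere in the window, at least 1 of these 3 TATA-like motifs was present in 19.9% of all 32851 promoter windows. By itself ATAAAAG was present in 5.42% of them, TATATA in 5.67% and TATAAA in 13.6%. Neither the AP-2 motif GCCNNNGGC (16.6% of all windows) nor the AP-1 motif TGANTCA (7.81%) matched in any of the 6 windows. The TATA-like letters thus occurred in 1 basal and 4 suprabasal genes whose levels differed widely, as described next. These matches describe letters in a window and no binding was measured.

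Each library held between 17409131 and 46542177 reads counted on genes. Levels are given as CPM, counts relative to the library size after scaling with edgeR's TMM method, and all 8 genes passed the filter on low counts, which kept 20307 genes. Replicate 2 of the libraries labelled tdT+CD49f+CD34+ stood apart from the other libraries of that label. The row of the files outside the Ensembl genes held 2.05 CPM there and 2.54 to 4.89 CPM in the tdTneg libraries, against 133 to 307 CPM in the other 5 tdT+ libraries. Summed T cell genes, at 32.3 CPM in this library, were within the 18.4 to 42.0 CPM of its group and above the 1.16 to 3.86 CPM of tdTnegCD49f+CD34+ libraries. Its summed Langerhans cell genes (347 CPM) and endothelial genes (377 CPM) were the highest of the CD49f+CD34+ libraries. The main fold changes, calls, ratios and correlations of the keratins and the main counts of the gene lists are also given without it. Levels, their order, shares of counts, summed list levels (apart from the Langerhans cell and endothelial sums) and the likeness of other genes are given with it only. Of 10 bulge markers, all tested, 10 were called lower in CD49f+CD34+SCA-1+ than in CD49f+CD34+ cells, by the threshold given below. Over all genes tested 11.6% were called in either direction. The median log2 fold change of the markers was -2.60, and over all genes tested -0.09. Cd34, which encodes the sorting marker, for example fell by 2.98 on the log2 scale.

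The basal keratin Krt5 had the highest mean level of the members per kb of exon in each group. Its levels were 8213, 8689 and 11346 CPM in tdT+CD49f+CD34+ and 11586, 12277 and 12320 CPM in tdTnegCD49f+CD34+ cells. In CD49f+CD34+SCA-1+ cells they were 16210, 15602 and 13331 CPM with tdT and 9607 and 11985 CPM without. The range over all libraries was narrow, the tdT+CD49f+CD34+SCA-1+ libraries being the highest and the tdT+CD49f+CD34+ libraries containing the 2 lowest.

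Krt14, its type I partner, was lower than Krt5 per kb of exon in each CD49f+CD34+ library. The levels were 3114, 3709 and 2615 CPM in tdT+CD49f+CD34+ and 3856, 5010 and 3884 CPM in tdTnegCD49f+CD34+ cells. They were 11354, 14634 and 9306 CPM in tdT+CD49f+CD34+SCA-1+ and 6293 and 7203 CPM in tdTnegCD49f+CD34+SCA-1+ cells. All 5 SCA-1+ libraries were above all 6 CD49f+CD34+ libraries, and within the SCA-1+ population all tdT+ libraries were above both tdTneg libraries.

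Krt1, the type II keratin of the spinous layers, was low and uneven in CD49f+CD34+ cells, with 560, 955 and 204 CPM in tdT+ and 369, 63.1 and 61.8 CPM in tdTneg libraries. It was high in CD49f+CD34+SCA-1+ cells, with 3281, 3075 and 3314 CPM in tdT+ and 2396 and 1207 CPM in tdTneg libraries. The highest CD49f+CD34+ library was thus below the lowest SCA-1+ library, and the CD49f+CD34+ libraries spanned a 15.5-fold range while the tdT+CD49f+CD34+SCA-1+ libraries spanned 1.08-fold.

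Krt10, the type I partner of K1, followed a like course at a higher level per kb. It had 1225, 2308 and 697 CPM in tdT+CD49f+CD34+ and 774, 101 and 170 CPM in tdTnegCD49f+CD34+ cells. In SCA-1+ cells it had 4725, 3204 and 5433 CPM with tdT and 3511 and 1334 CPM without. Here the populations overlapped, because tdT+CD49f+CD34+ replicate 2, the library with the low row outside the Ensembl genes, was above tdTnegCD49f+CD34+SCA-1+ replicate 2.

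Krt77, a type II keratin like K1, had 1099, 1623 and 776 CPM in tdT+CD49f+CD34+ and 620, 53.5 and 133 CPM in tdTnegCD49f+CD34+ cells. In the SCA-1+ cells it had 2054, 678 and 2943 CPM with tdT and 2953 and 537 CPM without. Replicates of 1 group differed by up to 11.6-fold, in tdTnegCD49f+CD34+ cells, and both populations held libraries under 700 CPM.

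Krt78 had the pattern of Krt77 at a far lower level per kb. It was at 20.5, 40.5 and 16.9 CPM in tdT+CD49f+CD34+ and at 12.4, 1.67 and 2.24 CPM in tdTnegCD49f+CD34+ cells. The SCA-1+ libraries had 25.7, 10.1 and 36.0 CPM with tdT and 51.2 and 5.03 CPM without. The 2 tdTneg libraries of the SCA-1+ population were its highest and its lowest.

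Krt80 was more even, with 216, 337 and 399 CPM in tdT+CD49f+CD34+, 227, 162 and 280 CPM in tdTnegCD49f+CD34+, 534, 305 and 845 CPM in tdT+CD49f+CD34+SCA-1+ and 367 and 242 CPM in tdTnegCD49f+CD34+SCA-1+ cells. Krt2, the keratin of the upper layers, was close to absent, at 0.68 to 3.86 CPM, which stands for 12 to 122 counts per library. Its highest value was in tdTnegCD49f+CD34+SCA-1+ replicate 1 and its lowest in tdT+CD49f+CD34+SCA-1+ replicate 2.

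**Figure D1:**
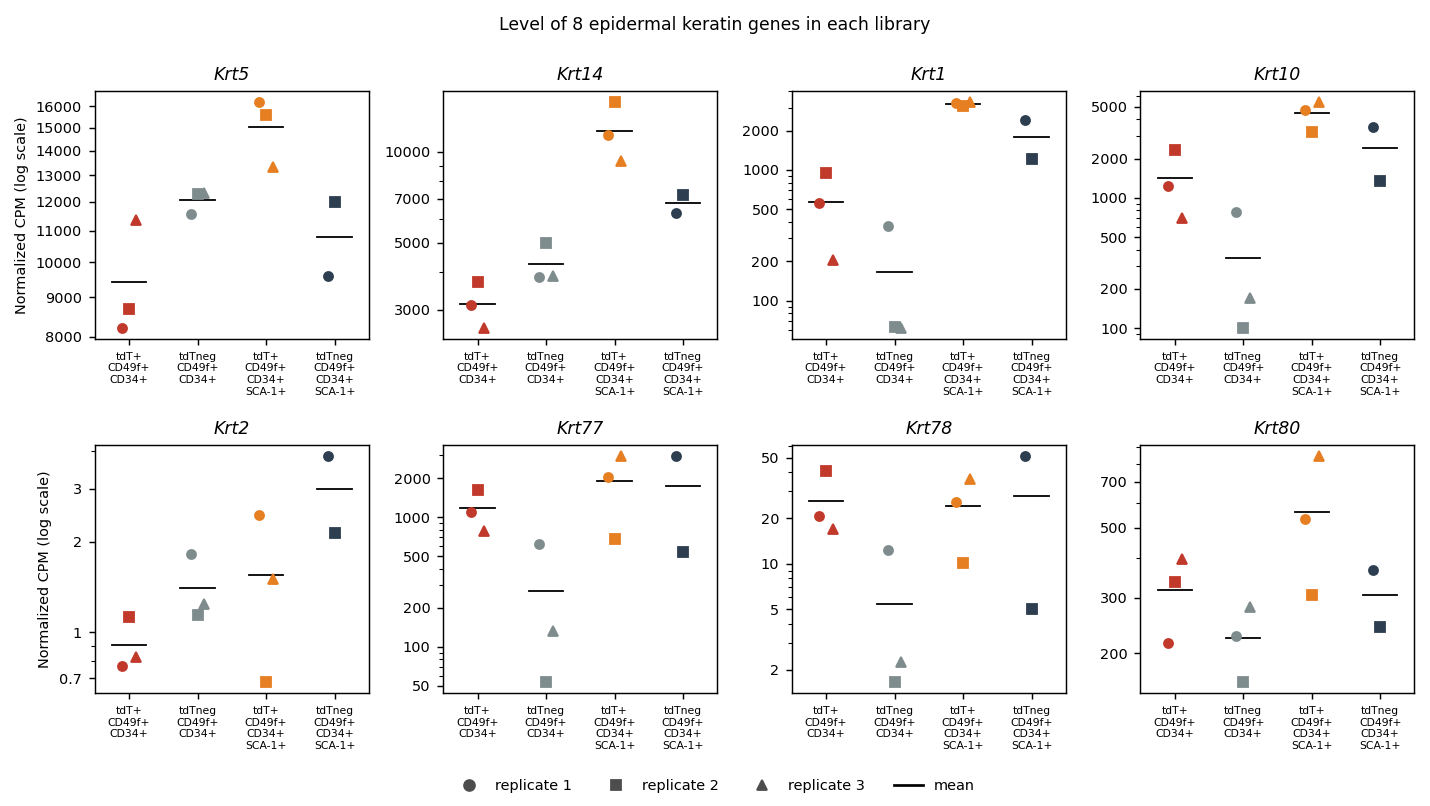
Normalized CPM on a log scale (y axis, a range of its own for each gene) of the 8 keratins in the 4 sorted groups (x axis), 1 point for each library with the replicate number given by the symbol's shape and the group mean as a line. Krt14 and Krt1 separate the SCA-1+ from the CD49f+CD34+ libraries, while Krt77 and Krt78 spread within each group, from 537 to 2953 CPM and from 5.03 to 51.2 CPM in tdTnegCD49f+CD34+SCA-1+ cells.

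Per kb of exon the order of the mean levels was Krt5, Krt14, Krt10, Krt77, Krt1, Krt80, Krt78 and Krt2 in 3 groups. In tdT+CD49f+CD34+SCA-1+ cells Krt1 (730 ± 29.4 CPM per kb, SD, n = 3) stood before Krt77 (645 ± 389 CPM per kb, SD, n = 3), but their libraries overlapped. Krt5 and Krt14 were apart in CD49f+CD34+ cells, at 4286 ± 768 and 1790 ± 312 CPM per kb (SD, n = 3) with tdT and at 5490 ± 188 and 2417 ± 374 CPM per kb (SD, n = 3) without. In tdT+CD49f+CD34+SCA-1+ cells they overlapped, at 6849 ± 691 and 6692 ± 1529 CPM per kb (SD, n = 3). Krt10 and Krt77 overlapped in every group except tdT+CD49f+CD34+SCA-1+ cells, where Krt10 reached 2107 ± 539 CPM per kb (SD, n = 3). The length used was the union of all annotated exons. With the longest coding transcript in its place, the levels of Krt1 and Krt80 per kb became 1.80 and 1.63 times higher and those of the other members changed by at most 1.04 times. Krt1 then stood before Krt77 in tdTnegCD49f+CD34+SCA-1+ cells too, at 734 and 595 CPM per kb, and Krt14 before Krt5 in tdT+CD49f+CD34+SCA-1+ cells, at 6929 and 6849 CPM per kb. Together the 8 genes took 1.29% to 1.83% of all counts in the CD49f+CD34+ libraries, 3.42% to 3.92% in the tdT+CD49f+CD34+SCA-1+ libraries and 2.27% and 2.65% in the tdTnegCD49f+CD34+SCA-1+ libraries. The 6 suprabasal members accounted for 0.037% to 0.54% in CD49f+CD34+ and for 0.34% to 1.22% in SCA-1+ libraries.

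Between the populations, as the mean over tdT status, 3 of the 8 keratins rose in CD49f+CD34+SCA-1+ cells and none fell. They were the basal Krt14 and the spinous pair Krt1 and Krt10. A gene was called at an edgeR quasi-likelihood adjusted p under 0.05 over all genes tested and an absolute log2 fold change over 1, and 11.6% of all genes tested were called in this comparison. For Krt14 the log2 fold change was 1.29 (SE 0.19, edgeR adjusted p = 0.00156), from a mean of 3698 to 9758 CPM. Krt1 rose by 2.97 (SE 0.56, adjusted p = 0.00554), from 369 to 2655 CPM. Krt10 rose by 2.23 (SE 0.55, adjusted p = 0.0203), from 879 to 3641 CPM. For Krt14 and Krt1 all SCA-1+ libraries were above all CD49f+CD34+ libraries, which held for 5.1% of all genes tested. With replicate 2 of tdT+CD49f+CD34+ cells left out the same 3 genes were called, at 1.35, 3.26 and 2.50, and the others had 0.23 (Krt5), 1.02 (Krt2), 1.85 (Krt77), 1.36 (Krt78) and 0.66 (Krt80). Krt10 rested on a single library, since without tdTnegCD49f+CD34+SCA-1+ replicate 1 its log2 fold change was 1.79 with an adjusted p of 0.109.

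The other 5 members did not pass. Krt77 had a log2 fold change of 1.70 (95% confidence interval 0.21 to 3.18, adjusted p = 0.102), and it was called without tdTnegCD49f+CD34+ replicate 1, at 2.46 (adjusted p = 0.0219), and without a filter on low counts, at 1.67 (adjusted p = 0.0185). Over all 16 alternative settings its log2 fold change was 0.84 to 2.46. Krt2 had 0.93 (-0.02 to 1.88, adjusted p = 0.152), Krt78 1.13 (-0.39 to 2.65, adjusted p = 0.276) and Krt80 0.64 (0.02 to 1.26, adjusted p = 0.136). Krt5 had 0.26 (-0.14 to 0.66, adjusted p = 0.347), an interval that lies under the change called for its partner Krt14. The median over the 8 members was 1.21 and over all genes tested -0.09. Split by the age of the mice, the log2 ratio of the population means was 1.34 at 29 weeks (2 SCA-1+ and 2 CD49f+CD34+ libraries) and 1.45 at 32 weeks (3 and 4 libraries) for Krt14, 2.61 and 2.98 for Krt1 and 2.04 and 2.02 for Krt10. For Krt78 it was 1.23 and 0.15. With replicate 2 of tdT+CD49f+CD34+ cells left out the values at 32 weeks were 1.44 for Krt14, 4.53 for Krt1, 3.37 for Krt10 and 1.30 for Krt78.

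**Figure D2:**
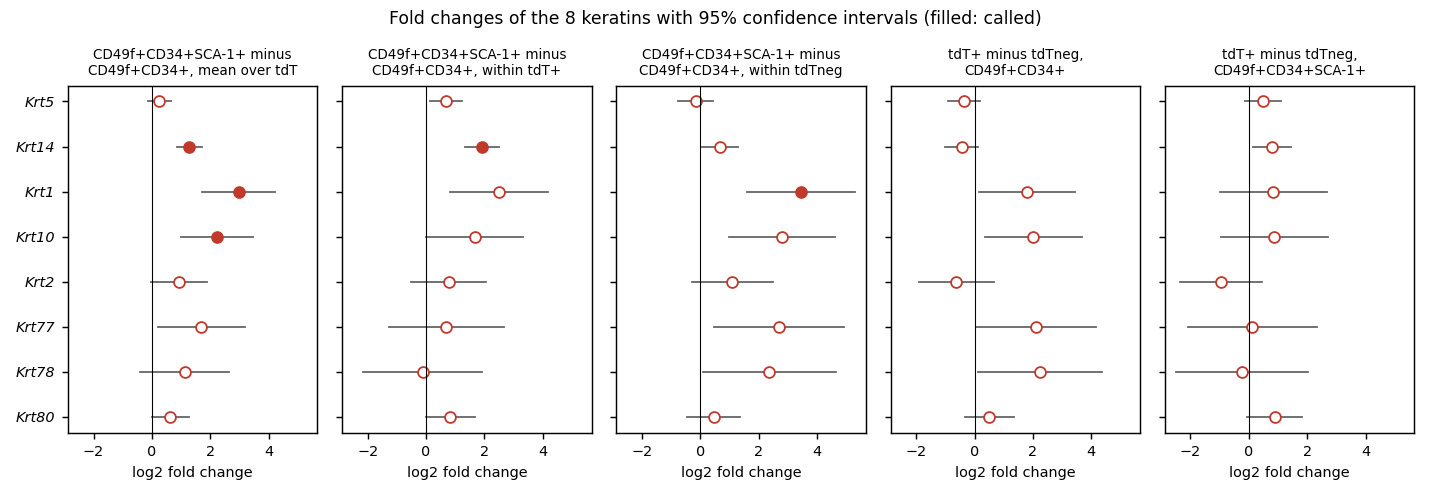
Log2 fold changes (x axis) of the 8 keratins (y axis) in 5 comparisons from 1 edgeR fit of all 11 libraries, with 95% confidence intervals as bars. Filled points mark called genes, which are Krt14, Krt1 and Krt10 for the mean over tdT status, Krt14 within tdT+ and Krt1 within tdTneg cells, and none between tdT+ and tdTneg cells.

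Within tdT+ cells 1 member was called, against 8.45% of all genes tested. Krt14 rose by 1.90 (SE 0.26, edgeR adjusted p = 0.00186), from a mean of 3146 to 11765 CPM. Krt1 had a log2 fold change of 2.49 (SE 0.76, adjusted p = 0.0582), from 573 to 3224 CPM. With the replicate number as a block it was called at 2.70 (adjusted p = 0.0376). That block compares libraries of the same number, which were taken to share a pool of mice, though the labels do not say so. Krt10 had 1.66 (adjusted p = 0.162) and Krt5 0.68 (adjusted p = 0.0947), and in both, as in Krt14 and Krt1, all SCA-1+ libraries were above all CD49f+CD34+ libraries with tdT, which held for 15.4% of all genes tested. Krt77 (0.70, 95% confidence interval -1.28 to 2.68), Krt78 (-0.12, -2.15 to 1.92), Krt80 (0.82, -0.01 to 1.66) and Krt2 (0.77, -0.52 to 2.06) did not pass either. Without replicate 2 of tdT+CD49f+CD34+ cells Krt14 was called at 2.04 and Krt1 had 3.08 with an adjusted p of 0.0599.

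Within tdTneg cells 1 member was called as well, against 4.74% of all genes tested, and it was another one. Krt1 rose by 3.45 (SE 0.82, edgeR adjusted p = 0.0393), from a mean of 165 to 1802 CPM. This call was near the threshold and was lost when any 1 library was left out other than tdT+CD49f+CD34+ replicates 2 and 3 and tdTnegCD49f+CD34+ replicate 1, with an adjusted p of up to 0.271 without tdTnegCD49f+CD34+SCA-1+ replicate 1. Krt10 had 2.80 (adjusted p = 0.0778), Krt77 2.70 (adjusted p = 0.156) and Krt78 2.37 (adjusted p = 0.218). Over 17 alternative settings Krt10 was at 1.92 to 4.16 and Krt77 at 0.99 to 4.23. Krt14 had 0.67 (95% confidence interval 0.04 to 1.29, adjusted p = 0.206), and Krt5 had -0.16 (-0.76 to 0.44). For Krt14, Krt1, Krt10 and Krt2 both SCA-1+ libraries were above the 3 CD49f+CD34+ libraries, which held for 19.9% of all genes tested. Krt80 (0.45) and Krt2 (1.10) had adjusted p-values of 0.582 and 0.351. Whether a gene was called within 1 tdT status only does not show a difference, which is tested below as the difference between the effects of tdT.

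Between tdT+ and tdTneg CD49f+CD34+ cells no keratin was called in edgeR, and 0.00985% of all genes tested were called. DESeq2 also called none of the 8, and 4 of them had an unadjusted p under 0.05 and a higher level in tdT+ cells in edgeR, which held for 4.56% of all genes tested. These were the suprabasal Krt1 (log2 fold change 1.80, edgeR adjusted p = 0.560), Krt10 (2.02, adjusted p = 0.507), Krt77 (2.12, adjusted p = 0.586) and Krt78 (2.25, adjusted p = 0.577). Krt77 and Krt78 were higher in all 3 tdT+ than in all 3 tdTneg libraries, which held for 5.07% of all genes tested. Krt5 (-0.36), Krt14 (-0.43) and Krt2 (-0.62) were lower in all tdT+ than in all tdTneg libraries, which held for 10.9%, and Krt80 had 0.51. For Krt2 the nearest libraries were almost equal, at 1.12 CPM (21 counts) with tdT and 1.14 CPM (43 counts) without. For Krt1 and Krt10 tdTneg replicate 1 was within the range of the tdT+ libraries, and tdTneg replicates 2 and 3 were below it. With replicate 2 of tdT+CD49f+CD34+ cells left out, the values were 1.21 for Krt1, 1.46 for Krt10, 1.80 for Krt77 and 1.78 for Krt78, with adjusted p-values between 0.735 and 0.777. Other alternatives gave up to 3.20, 3.38, 3.65 and 3.73 for these genes. Of T cell genes 6 of 6 and of Langerhans cell genes 4 of 5 also had an unadjusted p under 0.05 and a higher level in tdT+ cells. Without that library these were 6 of 6 and 2 of 5, beside 3.42% of all genes tested. None was called, and their part in the keratin values was not tested.

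In CD49f+CD34+SCA-1+ cells no keratin was called between tdT+ and tdTneg libraries in edgeR or DESeq2, against 2.31% of all genes tested, and 1 of the 8, Krt14, had an unadjusted p under 0.05 and a higher level in tdT+ cells, which held for 5.17% of all genes tested. Krt14 had a mean of 11765 CPM with and 6748 CPM without tdT (log2 fold change 0.80, 95% confidence interval 0.16 to 1.45, edgeR adjusted p = 0.220). Krt5, Krt14 and Krt1 were higher in all 3 tdT+ than in both tdTneg libraries, which held for 15.8% of all genes tested. Krt5 had 0.48 (-0.13 to 1.09), Krt1 0.84 (-0.99 to 2.67), Krt10 0.88 (-0.97 to 2.73) and Krt80 0.88 (-0.07 to 1.83). Krt77 (0.12, -2.09 to 2.33), Krt78 (-0.23, -2.49 to 2.03) and Krt2 (-0.95, -2.35 to 0.45) had intervals on both sides of 0 that leave room for changes of more than 1 in either direction, except upward for Krt2. With 2 tdTneg libraries that differed by 5.50-fold for Krt77 and 10.2-fold for Krt78, a difference within these intervals was not detectable. Other lists moved in the same comparison. Of the bulge genes 5 of 10 fell in tdT+ against tdTneg cells, with a median of -2.03 (over all genes tested 0.04), for example Cd34 (-3.68, edgeR adjusted p = 0.000776). Of the endothelial genes 1 of 5 fell, and of the T cell genes 4 of 6 rose. Without replicate 2 of tdT+CD49f+CD34+ cells, which enters the shared estimate of the spread, these counts were 5 of 10 (bulge), 4 of 5 and 3 of 6. The part of these in the keratin values was not tested.

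For the basal pair the tdT+ libraries were on opposite sides of the tdTneg libraries in the populations. Krt5 and Krt14 had lower levels with tdT in CD49f+CD34+ cells and higher levels in SCA-1+ cells, and neither was called in either. The difference between the effects was 1.24 for Krt14 (SE 0.38, edgeR adjusted p = 0.219) and 0.84 for Krt5 (SE 0.37, adjusted p = 0.392). Neither passed, no member was called, and 0.389% of all genes tested were. DESeq2 called Krt14 alone, at 1.12 (adjusted p = 0.0301). With replicate 2 of tdT+CD49f+CD34+ cells left out the edgeR values were 1.37 for Krt14 (adjusted p = 0.289) and 0.78 for Krt5 (adjusted p = 0.557). Cd34 was itself called for this difference, at -3.31 (adjusted p = 0.0132), and its part was not tested. The difference was negative for Krt1 (-0.96), Krt10 (-1.14), Krt77 (-2.0) and Krt78 (-2.48), with adjusted p-values of at least 0.503, and without the same library it was -0.38, -0.59, -1.69 and -2.01 for these 4 genes. Over 16 alternative settings it went from -2.36 to -0.37 for Krt1, from -2.50 to -0.27 for Krt10 and from -3.53 to -0.29 for Krt77. In the main fit the difference was -0.33 for Krt2 and, with the sign of the basal pair, 0.37 for Krt80, with adjusted p-values of at least 0.851.

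Ratios within a library do not depend on its scaling and set the members against each other. They were chosen after the levels had been seen and are given without a test. The ratio of Krt14 to Krt5, counts per kb of exon, was 0.288 to 0.533 in the CD49f+CD34+ and 0.751 to 1.17 in the SCA-1+ libraries, with no overlap and medians of 0.445 and 0.872. Type I and type II transcripts of the basal pair were thus nearer to parity in the SCA-1+ libraries. The spinous pair was unequal in the other direction. Krt10 to Krt1 was 3.33 to 7.13 in CD49f+CD34+ and 2.18 to 3.42 in SCA-1+ libraries, and with the longest coding transcript as the length the medians changed from 4.81 to 2.70 and from 3.01 to 1.69.

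The other type II keratins were set against Krt1 by the same measure. Krt77 to Krt1 was 1.28 to 5.72 in CD49f+CD34+ libraries (median 2.76) and 0.332 to 1.86 in SCA-1+ libraries (median 0.943). Krt78 to Krt1 was 0.0339 to 0.106 in CD49f+CD34+ and 0.00422 to 0.0275 in SCA-1+ libraries, with no overlap. Krt80 to Krt1 did not overlap either, at 0.244 to 3.13 and 0.0685 to 0.176. Within every group replicate 2 had the lowest Krt77 to Krt1 ratio. Krt1 to Krt5 was 0.0025 to 0.0547 in CD49f+CD34+ and 0.0501 to 0.124 in SCA-1+ libraries. Krt10 to Krt14, suprabasal over basal type I, overlapped over most of its range, 0.0167 to 0.518 against 0.154 to 0.486. Its median was 0.327 in CD49f+CD34+ and 0.346 in SCA-1+ libraries with tdT, and 0.0364 and 0.309 without tdT. The longest coding transcript as the length gave medians of 1.53 and 0.524 for Krt77 to Krt1, of 0.026 and 0.0056 for Krt78 to Krt1 and of 0.0223 and 0.181 for Krt1 to Krt5. With replicate 2 of tdT+CD49f+CD34+ cells left out the CD49f+CD34+ medians were 0.416 for Krt14 to Krt5, 4.57 for Krt10 to Krt1, 2.96 for Krt77 to Krt1, 0.0466 for Krt78 to Krt1, 0.00896 for Krt1 to Krt5 and 0.167 for Krt10 to Krt14. Krt1 to Krt5 then no longer overlapped between the populations.

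**Figure D3:**
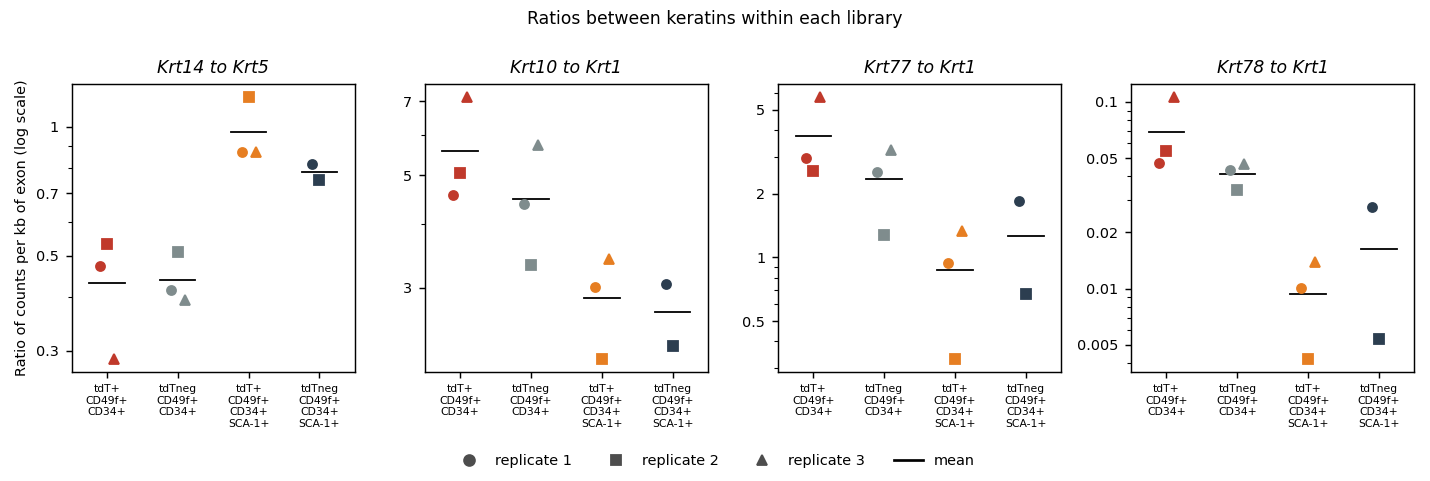
Ratios of counts per kb of exon between pairs of keratins within a library (y axis, log scale) in the 4 groups (x axis), with the symbol's shape giving the replicate and group means as lines. Krt14 to Krt5 is higher in all SCA-1+ (0.751 to 1.17) than in all CD49f+CD34+ libraries (0.288 to 0.533), and Krt78 to Krt1 is lower in all of them.

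How the members varied together was described by the Pearson correlation of log2 CPM over the 11 libraries. These share the group differences and, if the replicate numbers are read as pools, also mice and sorts. Krt1 and Krt10, the filament pair, had r = 0.97, and Krt77 and Krt78 had r = 0.96. After the group means were taken out these stayed at 0.94 and 0.96, and Krt10 with Krt77 was at 0.93. Krt5 with Krt14 fell from 0.74 to 0.04, so that this pair moved together between groups and not between libraries of 1 group. Krt5 had negative values with Krt1 (-0.62), Krt10 (-0.59), Krt77 (-0.56) and Krt78 (-0.60) within groups. Krt80 was at -0.80 with Krt14 and at 0.58 with Krt77. Over the 10 libraries without tdT+CD49f+CD34+ replicate 2 the values within groups were 0.93 for Krt1 with Krt10, 0.96 for Krt77 with Krt78, 0.19 for Krt5 with Krt14 and -0.96 for Krt14 with Krt80. In SCA-1+ cells and in tdTneg cells replicate 2 was low and replicate 1 or 3 high in Krt10 and Krt77, whereas in tdT+CD49f+CD34+ cells replicate 2 was the highest.

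**Figure D4:**
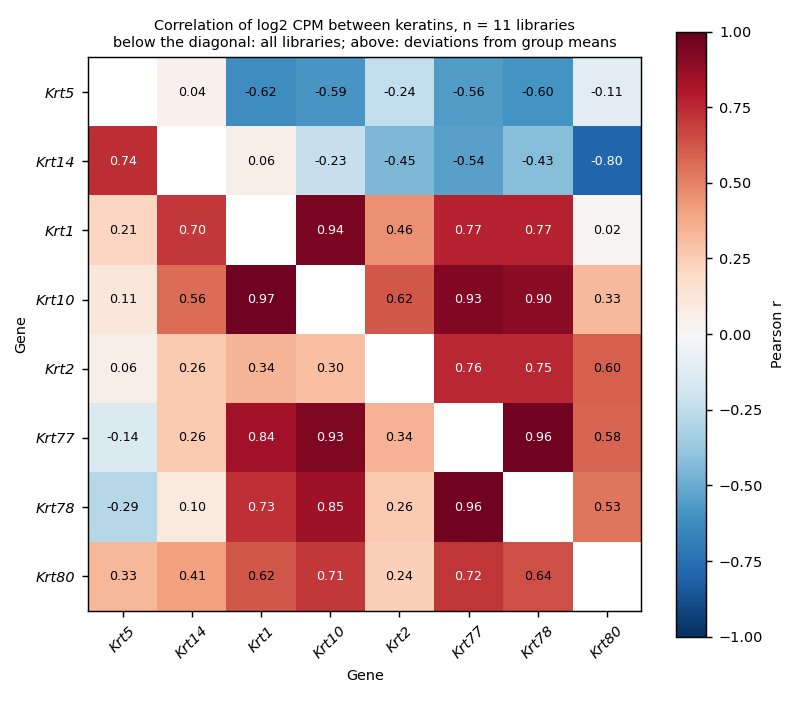
Pearson correlation of log2 CPM between the 8 keratins (both axes), n = 11 libraries, below the diagonal over all libraries and above it for deviations from the group means. Krt1, Krt10, Krt77 and Krt78 stay at 0.77 or more with each other within groups, while Krt5 with Krt14 goes from 0.74 to 0.04.

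Genes outside the 8 with the most similar pattern were sought among 15083 tested genes with a mean of at least 1 CPM, over the same 11 libraries. For Krt1 they were Pla2g4f, Npl and Zfp750 (r = 0.99 each), the last a transcription factor of epidermal differentiation. For Krt10 they were Aadacl2, Il1f5 and Calm5 (r = 0.99 each), where Il1f5 encodes an interleukin 36 receptor antagonist. Krt77 and Krt78 had Skint9 (0.98 and 0.96) and Mrgprb3 (0.98 and 0.97) in common, joined by the related Skint6 (0.97) and Skint5 (0.94), and Skint genes encode membrane proteins of skin and thymus epithelium. Krt14 was nearest to Ddx39 (0.98), Mrc2 (0.97) and H60c (0.97), the last a ligand of the receptor NKG2D in skin. Krt5 was nearest to Surf6 (0.97), Eif4h (0.93) and Rps6ka1 (0.92), Krt80 to Tyro3 (0.98), Pik3cb and Hivep2 (0.96 each), and Krt2 to Ano6 (0.92), N4bp1 (0.91) and Clasp1 (0.90). With this many genes compared over few libraries, high values are common and are a description only.

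As the mean over tdT status, part of the other genes of differentiation rose between the populations with the spinous keratins. Of 20 genes of the suprabasal and granular layers, all tested, 10 rose in SCA-1+ cells and none fell, with a median log2 fold change of 1.39 beside -0.09 over all genes tested, of which 11.6% were called. The largest rises were in Tgm3, a transglutaminase (3.21, adjusted p = 0.0248), Calm4, a calmodulin-like protein of the epidermis (2.36, adjusted p = 0.00234), Dsg1a, a desmosomal cadherin (2.19, adjusted p = 0.00415), and Casp14, a caspase of cornifying cells (2.06, adjusted p = 0.000748). Within tdT+ cells 5 of the 20 rose (8.45% of all genes tested were called), and within tdTneg cells 9 rose (4.74%). The fold change was positive for 13 of the 20 within tdT+ (median 0.47) and for 19 within tdTneg cells (median 2.21). Those below 0 within tdT+ cells included Flg (-4.66, mean levels of 0.036 and 1.22 CPM), Flg2 (-1.57), Hrnr (-1.04), Lor (-0.97) and Tgm1 (-0.83). None of them was called. No gene of the list was called between tdT+ and tdTneg cells of either population, though 9 had an unadjusted p under 0.05 and a higher level in tdT+CD49f+CD34+ cells, beside 4.56% of all genes tested. With replicate 2 of tdT+CD49f+CD34+ cells left out, 10 of the 20 were called between the populations, 4 within tdT+ and 9 within tdTneg cells, and 8 had an unadjusted p under 0.05 and a higher level in tdT+CD49f+CD34+ cells, beside 3.42% of all genes tested.

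Of 10 genes that anchor keratin filaments at desmosomes and hemidesmosomes, only Pkp1, a plakophilin, was called between the populations (1.17, adjusted p = 0.000348), from 899 to 2084 CPM, and the median was 0.44. This count is near the 11.6% called over all genes tested. Of 20 regulators of keratin genes and of the switch from basal to suprabasal cells, 7 rose and none fell, beside 11.6% of all genes called, with a median of 0.57. The largest rises were in Grhl3 (2.22, adjusted p = 0.000663), Zfp750 (1.98, adjusted p = 0.000502), Klf5 (1.96, adjusted p = 0.000197) and Tfap2c (1.84, adjusted p = 0.000128), transcription factors expressed in epidermis, the last of the AP-2 family. Within each tdT status 6 regulators rose, beside 8.45% of all genes called within tdT+ and 4.74% within tdTneg cells. None was called between tdT+ and tdTneg cells, where 0.00985% (CD49f+CD34+) and 2.31% (SCA-1+) of all genes were. Without replicate 2 of tdT+CD49f+CD34+ cells, 8 regulators rose between the populations, 5 within tdT+ and 6 within tdTneg cells, and 1 anchor was called between the populations.

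The 46 other keratin genes went both ways. Of 40 tested, 5 rose and 4 fell between the populations, beside 11.6% of all genes called in either direction, and 4 rose and 5 fell without replicate 2 of tdT+CD49f+CD34+ cells. Among those called, the largest changes were in Krt8, a keratin of simple epithelia (-4.52, adjusted p = 0.0365), Krt24 (-3.66, adjusted p = 0.000126), Krt6b (3.28, adjusted p = 0.0240) and Krt71, a keratin of the inner root sheath (2.86, adjusted p = 0.0379). Their sum was 9497 to 15816 CPM in CD49f+CD34+ and 6850 to 9256 CPM in SCA-1+ libraries, while that of the 8 members was 14449 to 17669 CPM and 22516 to 38187 CPM.

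Markers of other cells differed between the groups. Between the populations 11.6% of all genes were called. Of T cell genes 6 of 6 rose in SCA-1+ cells, from a summed level of 1.16 to 42.0 CPM in CD49f+CD34+ libraries to 50.7 and 51.1 CPM in tdTneg and 199 to 625 CPM in tdT+ SCA-1+ libraries, and Cd3e rose by 4.04. Of Langerhans cell genes 5 of 5 rose, from at most 347 CPM in CD49f+CD34+ to 268 to 684 CPM in SCA-1+ libraries, with Cd207 at 2.73. The 347 CPM was in tdT+CD49f+CD34+ replicate 2, and the other CD49f+CD34+ libraries had at most 133 CPM. Endothelial genes summed to 1459 and 1520 CPM in the tdTnegCD49f+CD34+SCA-1+ libraries and to 4.96 to 377 CPM elsewhere. The 377 CPM was again in tdT+CD49f+CD34+ replicate 2, and the remaining libraries had at most 83.2 CPM. None of 5 endothelial genes was called as the mean over tdT status. Melanocyte genes were lower in SCA-1+ cells in 2 of 5, with sums of 25.4 to 63.1 CPM against 5.73 to 34.4 CPM, and fibroblast genes (0 of 6 called) had sums of 87.8 to 297 CPM and 26.9 to 478 CPM. No gene of these 5 lists was at 0 in all libraries of a group. Without replicate 2 of tdT+CD49f+CD34+ cells 3 of 5 endothelial genes were called higher in SCA-1+ cells, 1 of 5 melanocyte genes was called lower, and the counts for T cells, Langerhans cells, fibroblasts and bulge genes were 6 of 6, 5 of 5, 0 of 6 and 10 of 10 as before. Their part in the keratin differences was not tested, and in bulk RNA fewer cells of a type and less RNA per cell cannot be told apart.

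Reads of related genes may be shared. Of all 50-base stretches of their transcripts, 12.2% of Krt5 also occurred in another gene, mainly Krt6a, and 13.9% of Krt14, in Krt16 and Krt17. Krt1, Krt2, Krt77 and Krt78 shared none, and Krt10 and Krt80 shared 2.37% and 2.74%, mainly with the antisense genes Gm11940 and Gm35853 that overlap them. Gm11940 had 429 counts beside 612845 for Krt10 over all libraries, and Gm35853 4952 beside 106036 for Krt80. The strand setting of the counting is not given in the sources used here, so that reads of these pairs could not be told apart by strand.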

How the data were processed

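RNA from 11 libraries of sorted epidermal cells was analysed from the deposited counts per gene. The authors made these counts with STAR on mm10 and featureCounts on the Ensembl release 96 annotation, as whole numbers without normalization, and the strand setting is not given in the sources used here. Group and replicate number came from the sample labels. All 55536 gene IDs were matched to symbols and exons of GENCODE M21 (Ensembl 96). A row outside the Ensembl genes (0.000205% to 0.0307% of counts) was kept out of totals and tests.

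Counts were fitted in R 4.3.3 with edgeR 4.0.16 (TMM, filterByExpr on the 4 groups, 1 mean per group, glmQLFit and glmQLFTest) over all libraries, with Benjamini-Hochberg adjustment over 20307 genes and calls as defined in the report. Standard errors were derived from the F statistic. Over all genes the 95% interval of a fold change reached a median of 0.71 log2 units to either side between the populations, and 0.94 and 1.04 between tdT+ and tdTneg cells of the CD49f+CD34+ and the SCA-1+ population. For correlations, 2 was the prior count of log2 CPM. The common biological coefficient of variation was 0.608. The fit was tested on simulated data. Alternatives were DESeq2 1.42.0, RLE size factors, no filter on low counts, the replicate number as a block, the age of the mice as a term, only the groups compared and the omission of each library; another gene length, and ratios, correlations, gene lists and age split without tdT+CD49f+CD34+ replicate 2, were added after seeing the data. Ratios, levels and figures used Python 3.11.15, pandas 2.3.3 and matplotlib 3.10.9. Promoter sequences came from RefSeq on GRCm38.p6.

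Libraries sharing a number were taken to share a pool of mice, since the methods give 3 biological replicates of 2 mice and ages agree by number. After group means were removed, libraries sharing a number had a median correlation of 0.083 over 15 pairings (-0.42 to 0.59), against -0.023 over 30 other pairings. The members and the gene lists (suprabasal and granular differentiation, filament anchors, regulators, bulge, melanocytes, T cells, endothelial cells, Langerhans cells, fibroblasts, all other keratins) were chosen with earlier results of these data known. All 8 keratins are described, list genes as counts with up to 4 examples, being the called genes with the largest change between the populations, and genes of similar pattern as the 3 with the highest correlation. Comparisons within and between tdT status share libraries.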

Additional observations from a re-analysis of the deposited data

Results flagged for a closer look

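For Krt5 and Krt14 the libraries of tdT+ and tdTneg cells did not overlap in either population, in opposite directions. In CD49f+CD34+ cells every tdT+ library was below every tdTneg library, as for 10.9% of all genes tested, and in CD49f+CD34+SCA-1+ cells every tdT+ library was above both tdTneg libraries, as for 15.8%. The difference between the effects was 0.84 for Krt5 and 1.24 for Krt14 on the log2 scale, with edgeR adjusted p-values of 0.392 and 0.219, so neither passed. DESeq2 called Krt14 for this difference, at 1.12 (adjusted p = 0.0301), and not Krt5. Over 16 alternative settings, the omission of each library included, the difference was 0.70 to 0.99 for Krt5 and 0.96 to 1.38 for Krt14. The test for an outlying library within a group needs at least 4 and was not run on groups of 2 or 3.

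The row outside the Ensembl genes, which entered no test, had a median of 254 CPM over the tdT+CD49f+CD34+SCA-1+ libraries, against 4.10 and 4.89 CPM in the tdTneg libraries of that population.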

How the results depend on the processing

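Of 800 fold changes of single keratins under alternative settings, 762 kept their direction and their side of the threshold, 10 lost and 15 gained a call, and 13 changed sign. Between the populations as the mean over tdT status, 2 to 4 keratins were called when 1 library was left out, and 4, Krt77 added, without a filter on low counts. Within tdT+ cells Krt14 alone was called in the fit described and Krt14 with Krt1, that is 2 keratins, with DESeq2, without a filter on low counts, with the replicate block, with age as a term and with only the groups compared, and 1 to 2 without 1 library. Within tdTneg cells 1 was called, 3 (Krt1, Krt10, Krt77) with DESeq2 and without a filter, 0 with only the groups compared (Krt1 at 3.52, adjusted p = 0.0709), and 0 to 2 without 1 library. For the difference between the effects of tdT, DESeq2 called 1 keratin. The replicate block changed no call other than that of Krt1 within tdT+ cells. Some values stayed under the fold threshold of 1 in all 17 settings, so that no adjusted p could make a call. These were Krt5 within tdT+ cells (0.59 to 0.83), Krt14 within tdTneg cells (0.56 to 0.81) and Krt14 between tdT+ and tdTneg SCA-1+ cells (0.56 to 0.94).

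Sign changes were in values that were not called. Between tdT+ and tdTneg SCA-1+ cells Krt78 was 0.45 with the replicate block and 0.64 with age as a term. Without 1 library it went from -1.14 to 2.25, and Krt77 from -0.68 to 1.81. Krt78 went from -0.12 to 1.86 between the populations, from -0.53 to 0.36 within tdT+ and from -0.13 to 3.84 within tdTneg cells, and its difference between the effects of tdT from -3.96 to 0.0092. That difference went from -0.83 to 0.18 for Krt2 and from -0.048 to 0.71 for Krt80. Leaving out a tdTnegCD49f+CD34+SCA-1+ library leaves 1 in that group, assumed to vary like the others. The cause was not tested. RLE size factors moved the median of all genes for the difference between the effects of tdT from 0.05 to -0.07. Over all genes DESeq2 called 3540 between the populations (edgeR 2347), 3423 within tdT+ (1715), 2162 within tdTneg (963), 377 for tdT in CD49f+CD34+ (2), 1230 in SCA-1+ cells (470) and 845 for the difference (79). Without a filter the last 3 were 166, 885 and 568. With only the groups compared 1452 genes were called within tdTneg and 885 for tdT in SCA-1+ cells, with 0 for tdT in CD49f+CD34+ cells, where age as a term gave 0, RLE 5 and the block 4. Without 1 library the counts over all genes, in the same order, were 1160 to 2510, 1174 to 2233, 55 to 1300, 0 to 7, 97 to 700 and 1 to 376. Counts of 12 to 122 per library limit Krt2.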
